A study of Drosophila melanogaster with 4 samples.

Results

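The bithorax complex of Drosophila melanogaster is the stretch of chromosome arm 3R that holds the Hox genes Ubx, abd-A and Abd-B. Its CTCF-enriched regions were taken as all listed regions that overlapped 3R 12480000 to 12810000 in FlyBase release 5, whatever their score. There were 21 such regions of 3888 in the list made from both ChIP libraries together, called the pooled list. The replicate 1 list held 15 of its 2408 regions there, and the replicate 2 list 15 of its 2080. Chromatin came from whole wild-type Oregon-R embryos at 14 to 16 h of development, and DNA bound by CTCF was recovered by chromatin immunoprecipitation and sequenced (ChIP-seq). There were 2 CTCF ChIP libraries and 2 input libraries of sheared chromatin, whose values were not analysed here. Read depth is unknown, so the error of a region's score from sequencing cannot be given.

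CTCF is a zinc-finger protein that binds chromatin insulators, and flies that lack it show transformations of posterior segments. The 3 Hox genes give the segments of the posterior thorax and abdomen their identity. Ubx acts in the posterior thorax and first abdominal segment, abd-A in the middle abdomen and Abd-B in the posterior abdomen and genitalia. All are transcribed leftward in release 5, so the right end of each span is the 5′ end of its longest transcript. Long stretches of regulatory DNA lie between them, divided into segment-specific domains by boundary elements that keep the enhancers of neighbouring domains apart. Genetic work orders the boundaries Fub, Fab-3, Fab-4, Mcp, Fab-6, Fab-7 and Fab-8 from the side of abd-A nearest Ubx to Abd-B. No positions of these boundaries were used here, so regions are described by place and not by boundary.

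The gene spans were about 12482300 to 12560100 for Ubx (77.8 kb, gene 42034), 12632900 to 12655800 for abd-A (22.9 kb, gene 42037) and 12752900 to 12798000 for Abd-B (45.1 kb, gene 47763). These lengths differed by 3, 65 and 76 bp from those of the same genes in RefSeq release 6, which lists them in the same order on 3R. No annotation of release 5 was used, so exons, introns and UTRs were not assigned. RefSeq places 6 genes between Ubx and abd-A, among them the long noncoding RNA lncRNA:bxd and the sugar transporter gene Glut3. It places another 6 between abd-A and Abd-B, among them lncRNA:iab8, lncRNA:iab4 and the microRNA genes mir-iab-4 and mir-iab-8. On the outer sides, modSP is the neighbour of Ubx and VhaM9.7-d that of Abd-B.

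The highest-scoring CTCF regions of the complex lay between the 3 gene spans and in Abd-B. Those in the spans of Ubx and abd-A scored lower, up to 1.19. Whether regions between the spans overlapped the other genes there was not determined. Strength is given by the authors' score, a value per region whose formula is not stated. It was read mainly as an order within a list and says nothing here of fold enrichment. The class limit below and the score medians use the values themselves. The pooled scores were divided into a high class of 11 regions, from 2.21 to 4.61, and a low class of 10, from 0.246 to 1.19. None lay between, where a limit of 2 was set after the values were seen. Strong and weak, for regions of the complex, mean these 2 classes. The low class reached percentile 80.6 of pooled 3R scores, so its members are not all weak for the arm. On the rest of 3R, 44 of 841 pooled regions (5.23%) scored between 1.2 and 2.2. The high class comprised 3 regions between Ubx and abd-A, 5 between abd-A and Abd-B, and 3 within Abd-B. Because whole embryos were used, strong binding in few cells and weak binding in many cannot be told apart.

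**Figure D1:**
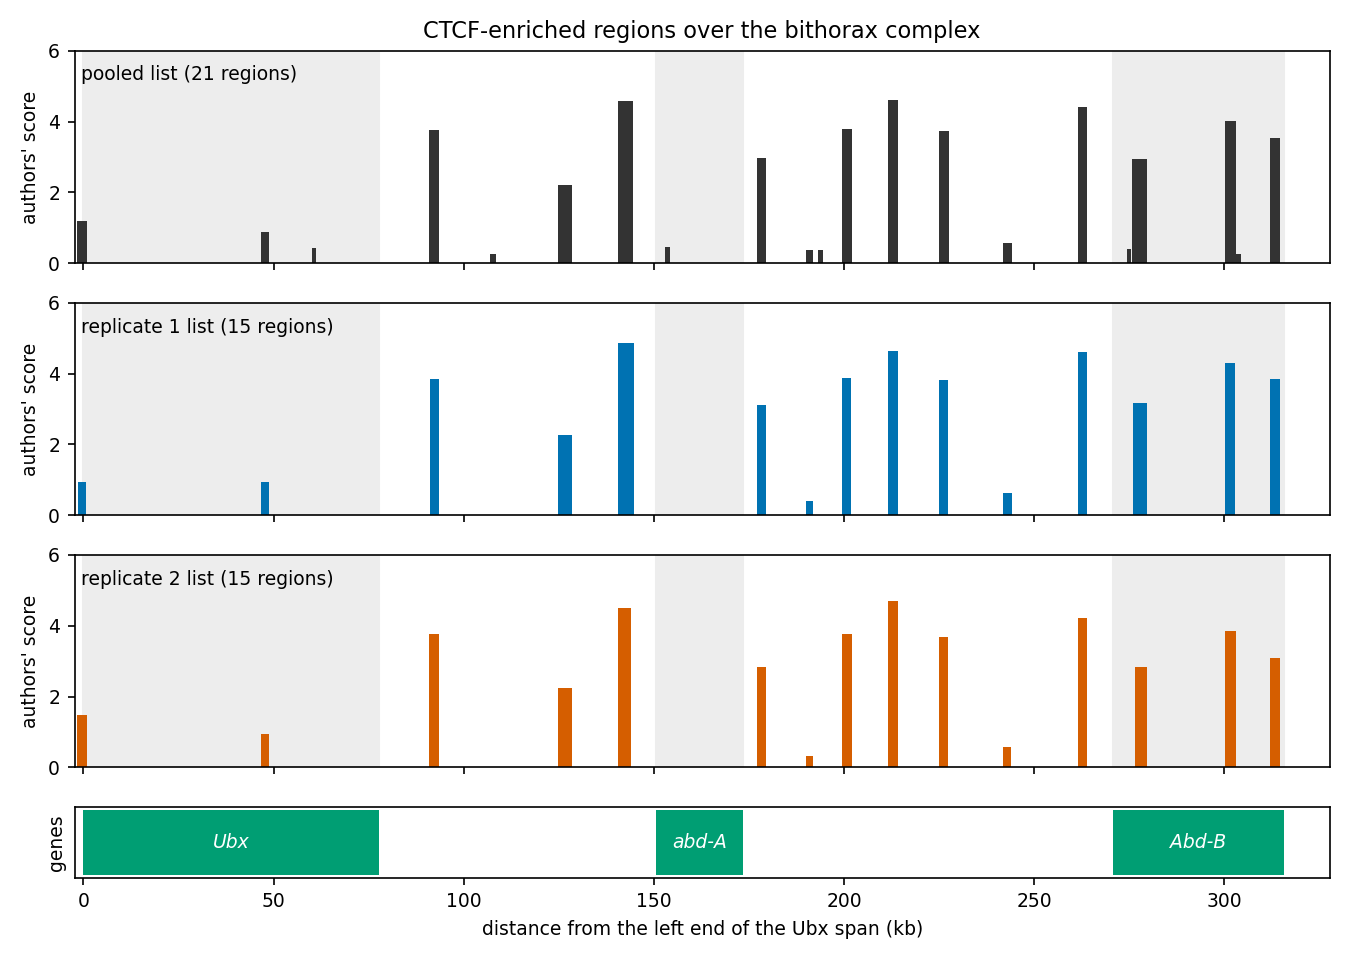
CTCF-enriched regions of the pooled list (top), replicate 1 (below it) and replicate 2 (above the genes) over the bithorax complex. The x axis is the distance in kb from the left end of the Ubx span, each bar is 1 region drawn to its width, bar height is the authors' score, and shading and the green boxes mark the gene spans. The pooled list has 21 bars and each replicate 15, the same 15 places in both, and the 11 high bars all lie to the right of Ubx.

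Ubx carried 3 pooled regions, none of them in the high class. The region at its left end, 3R 12480670 to 12483226, straddled the limit of the span and scored 1.19 in the pooled list, where it ranked 168 of the 862 regions on 3R. It scored 0.941 in replicate 1 (rank 198 of 514 on 3R) and 1.48 in replicate 2 (rank 153 of 454). It was 1 of 2 regions in the complex that stood higher in the order of replicate 2 than in that of replicate 1, at percentile 66.5 of 3R scores in replicate 2 and 61.7 in replicate 1. In the pooled list it stood at percentile 80.6. The second region, 12528952 to 12531172, lay within the span and scored 0.884 in the pooled list, at percentile 76.2 of 3R scores. It scored 0.946 in replicate 1 (percentile 62.3) and 0.927 in replicate 2 (percentile 56.8), so it too was a mid-ranking region of both libraries. The third, 12542330 to 12543380, scored 0.416 and was in neither replicate list. No region overlapped the right end of the Ubx span, where its transcription begins. The nearest was 13.2 kb further right, and the 45.7 kb between the first and second regions of Ubx was the longest stretch without a region in the complex.

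Between Ubx and abd-A, a 72.8 kb stretch that includes lncRNA:bxd, CTCF was strong at 3 of 4 regions. The region nearest Ubx, 3R 12573280 to 12575804, scored 3.77 in the pooled list, 3.85 in replicate 1 and 3.76 in replicate 2. It ranked 38 of 862 on 3R in the pooled list, 36 of 514 in replicate 1 and 42 of 454 in replicate 2. It is thus a strong region in both libraries, and the first of the high class on the way from Ubx to Abd-B. The region 12607142 to 12610878 scored 2.21 in the pooled list, 2.26 in replicate 1 and 2.23 in replicate 2. It was the lowest of the high class and 1 of its 3 regions wider than 3 kb, at 3737 bp. The region 12622736 to 12626862, the one nearest abd-A on this side, scored 4.59 in the pooled list, 4.85 in replicate 1 and 4.50 in replicate 2. It ranked 9 on 3R in the pooled list, 7 in replicate 1 and 10 in replicate 2, and at 4127 bp it was the widest of the complex. Its right edge differed between libraries, at 12626961 in replicate 1 and 12626194 in replicate 2, while its left edges were 1 bp apart. The other region of this stretch, 12589188 to 12590680, scored 0.248 and was in neither replicate.

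abd-A held 1 region within its span, 3R 12635320 to 12636416, which scored 0.461 in the pooled list and was in neither replicate list. Strong regions stood on both sides of the gene. On the left the region 12622736 to 12626862 ended 6.04 kb before the span, and on the right the next began 3.51 kb beyond it. That right-hand region, 12659308 to 12661734, is the nearest to the 5′ end of abd-A. It scored 2.96 in the pooled list, 3.12 in replicate 1 and 2.84 in replicate 2, and ranked 84, 78 and 92 on 3R in these lists.

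The 97.1 kb between abd-A and Abd-B, which holds several but not all of the regulatory domains named iab, had the largest number of regions, 8 of 21, with 7 of them in both replicates. Besides the region just described, 4 were of the high class. The region 3R 12681650 to 12684266 scored 3.79 in the pooled list, 3.87 in replicate 1 and 3.77 in replicate 2. The region 12693762 to 12696440 scored 4.61 in the pooled list, 4.64 in replicate 1 and 4.70 in replicate 2, which made it the highest of the complex in the pooled list and in replicate 2. It ranked 8 of 862 on 3R in the pooled list, 12 of 514 in replicate 1 and 8 of 454 in replicate 2. In replicate 1 the region next to abd-A on the left, at 12622799, was higher. The region 12707214 to 12709760 scored 3.74 in the pooled list, 3.83 in replicate 1 and 3.67 in replicate 2. The region 12743776 to 12746192, the last before Abd-B, scored 4.41 in the pooled list, 4.61 in replicate 1 and 4.21 in replicate 2. It ranked 13 on 3R in the pooled list, 14 in replicate 1 and 18 in replicate 2. All 4 ranked 48 or better on 3R in each list.

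A weak region interrupted this row. The region 3R 12724002 to 12726340, between the last pair of high-class regions before Abd-B, scored 0.574 in the pooled list, 0.628 in replicate 1 and 0.568 in replicate 2. It was in both libraries, but only at percentile 50.2 of 3R scores in replicate 1 and 39.0 in replicate 2, against 69.0 in the pooled list. The region 12672224 to 12674228 scored 0.365 in the pooled list, 0.396 in replicate 1 and 0.327 in replicate 2. It was the weakest of the complex that both libraries held, at percentile 18.9 of 3R scores in replicate 1 and 3.74 in replicate 2, the widest gap of any pair in the complex. Its neighbour 12675390 to 12676756, 1161 bp to the right, scored 0.384 and was in neither replicate.

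Abd-B was the only gene of the 3 whose span held regions with a score over 2 in any of the lists. It had 5 pooled regions in 45.1 kb, or 11.1 per 100 kb, against 3.86 per 100 kb in Ubx and 4.37 in abd-A, and regions covered 26.2% of its span, 5.40% of Ubx and 4.79% of abd-A. With 1 to 5 regions a gene these densities were not tested. The region 3R 12758128 to 12761890, near the left end of the gene, scored 2.93 in the pooled list, 3.16 in replicate 1 and 2.84 in replicate 2. It began further left in replicate 1, at 12758256, than in replicate 2, at 12758845. The region 12782350 to 12785262 scored 4.02 in the pooled list, 4.30 in replicate 1 and 3.84 in replicate 2, and ranked 27, 21 and 37 on 3R in these lists. The region 12794262 to 12796996 scored 3.52 in the pooled list, 3.85 in replicate 1 and 3.08 in replicate 2. Of the high class it differed most in order between libraries, ranking 37 of 514 on 3R in replicate 1 and 79 of 454 in replicate 2. It ended about 1.00 kb inside the right end of the span, where the longest Abd-B transcripts begin, and was the closest of all pooled regions to the 5′ end of any of the 3 genes. The other 2 regions, 12756596 to 12757646 with a score of 0.408 and 12785324 to 12786672 with 0.246, were in neither replicate. They lay 481 and 61 bp from a high-class region of the gene.

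Beyond Abd-B the row ended. No pooled region lay between the end of Abd-B and the limit of the interval, and the next one on 3R, 12867790 to 12869424, was 70.8 kb from the last region of Abd-B and scored 0.215. On the Ubx side the next region, 12465212 to 12466844, was 13.8 kb away and scored 0.286. These neighbours ranked 810 and 675 of 862 on 3R, so the regions just outside the interval were among the weaker ones of the arm. The first region inside, on the Ubx side, scored 1.19. The last region inside, on the Abd-B side, scored 3.52.

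All 15 places of one replicate were the 15 places of the other. Of the 15 replicate 1 regions in the complex, all 15 shared at least 1 bp with a region of replicate 2 (100%, exact 95% binomial interval 78.2 to 100), against 384 of 499 replicate 1 regions on the rest of 3R, a background of 77.0%. Counted from replicate 2, 15 of 15 regions matched replicate 1, against 384 of 439 on the rest of 3R (87.5%). The intervals treat regions as independent and cover counting only. That of the complex includes the background of 87.5% and lies above that of 77.0%. On the rest of 3R, 98.3% of pooled regions with a score over 2 overlapped both replicates and 36.6% of those with lower scores. The regions of the complex scored high, and the part of score in the difference was not tested.

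The order of strength within the complex was nearly the same in both libraries. Spearman's rho over the 15 shared regions was 0.989, given as a description, since regions of the same 2 libraries are not independent. Score percentiles on 3R differed between replicates by a median of 4.04 points in the complex, from 0.598 to 15.1, and by 4.45 points over the 384 shared regions of the rest of 3R, from 0 to 84.2. Shared regions were counted from replicate 1, and the gap of 84.2 belongs to 1 of 2 replicate 1 regions paired with the same replicate 2 region. The percentile was higher in replicate 1 for 13 of 15 regions of the complex and for 271 of 384 on the rest of 3R (70.6%). The replicate 1 list is the longer one, and its part in this was not tested. Centres of the shared regions were a median of 37.5 bp apart between replicates in the complex (7.0 to 383 bp) and 48.0 bp apart on the rest of 3R.

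**Figure D2:**
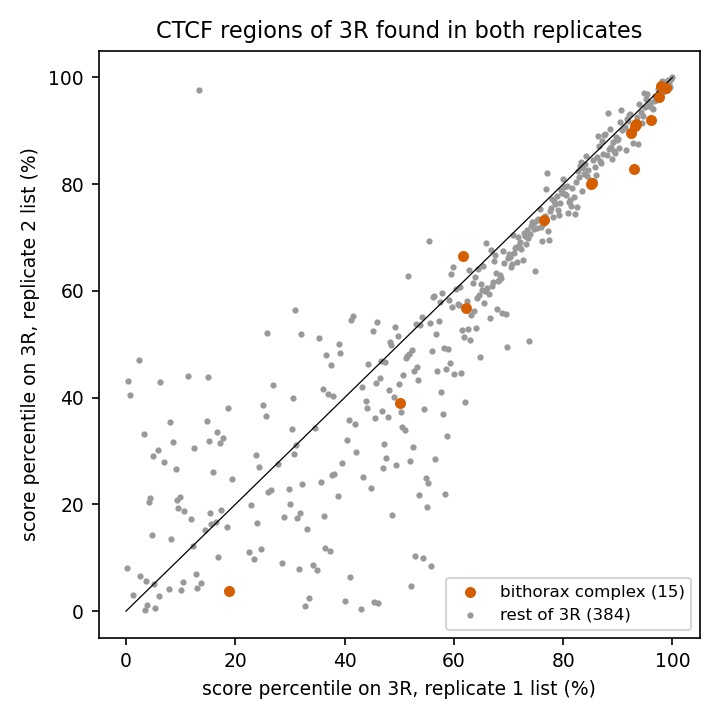
Score percentile among the 3R regions of the replicate 1 list (x axis, %) and of the replicate 2 list (y axis, %). Each point is a replicate 1 region of 3R and the highest-scoring replicate 2 region that it overlaps. Orange points are the 15 regions of the bithorax complex, grey points the 384 regions of the rest of 3R, and the line marks equal percentiles. The 11 high-class regions of the complex lie at or above 73.3 on both axes, and among the orange points the one at the lower left, a weak region, departs furthest from the line, by 15.1 points. Grey points depart by up to 84.2 points, and the furthest is 1 of 2 replicate 1 regions paired with the same replicate 2 region.

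The 6 pooled regions of the complex that neither replicate list held were narrow and weak. They were 1051 to 1493 bp wide and scored 0.246 to 0.461, whereas the 15 seen in both replicates were 2005 to 4127 bp wide and scored 0.365 to 4.61. Of the 6, 3 were shorter than 1301 bp, the shortest region of either replicate list, so a region of their length had no counterpart in those lists anywhere. Regions in neither replicate made up 28.6% of the complex (6 of 21, exact 95% interval 11.3 to 52.2), against 35.8% of the rest of 3R (301 of 841), a share inside that interval.

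Set against the rest of the same arm, the complex was dense in CTCF regions. It held 63.6 pooled regions per Mb (21 in 330 kb), against 30.5 per Mb on the rest of 3R (841 in 27.6 Mb), a density ratio of 2.09 with an exact 95% binomial interval of 1.28 to 3.21. The ratio was 2.51 (1.40 to 4.18) with the replicate 1 list alone and 2.86 (1.58 to 4.76) with the replicate 2 list alone. All 3 intervals lay above 1, although they treat regions as independent, and the complex was picked as a known Hox locus with results of these data at hand. Pooled regions covered 14.9% of the complex and 5.99% of the rest of 3R. Their median width was 2427 bp in the complex and 1885 bp on the rest of 3R, so both number and median width were greater there. Within score classes width was not greater. Medians were 2679 bp in the complex and 2687 bp on the rest of 3R for scores over 2, and 1430 and 1772 bp for scores up to 2. Of the pooled regions of the complex, 15 of 21 overlapped both replicates (71.4%, exact 95% interval 47.8 to 88.7), against 381 of 841 on the rest of 3R (45.3%), a share just below that interval. Among regions at or above the median score of 3R the shares were close, 14 of 18 in the complex (77.8%, 52.4 to 93.6) against 324 of 413 on the rest of 3R (78.5%). With centres required to lie within 200 bp, 13 of 21 were seen in both (61.9%, 38.4 to 81.9), against 38.9% of the rest of 3R, which lies inside the interval, near its lower limit. Since both libraries went into the pooled list, neither share is independent evidence of agreement between them.

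The regions of the complex also stood high in the order of 3R. Their median score was 2.21 in the pooled list, against 0.379 for the rest of 3R, and their median percentile among 3R scores was 86.1, against 49.1. The median percentile was 92.4 in the replicate 1 list and 82.8 in the replicate 2 list. In the pooled list, 10 of 21 regions were in the top 10% of 3R scores (47.6%, exact 95% interval 25.7 to 70.2), against 77 of 841 on the rest of 3R, a background of 9.16%. By each replicate's own scores the counts were 8 of 15 in replicate 1, with a background of 8.82%, and 6 of 15 in replicate 2, with a background of 9.11%. Every one of these backgrounds was below the lower limit of the interval for the complex. That limit was 26.6% in replicate 1 and 16.3% in replicate 2. The intervals treat regions as independent and cover counting only. The pooled list was made from the libraries of the replicate lists, so these comparisons are not separate evidence. Of the 10 highest pooled regions of 3R the complex held 2, and of the 40 highest it held 7. Of all pooled regions of 3R it held 2.44%, on 1.18% of the arm's length. It did not hold the highest, which was 3R 10215524 to 10218530 with a score of 5.29.

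**Figure D3:**
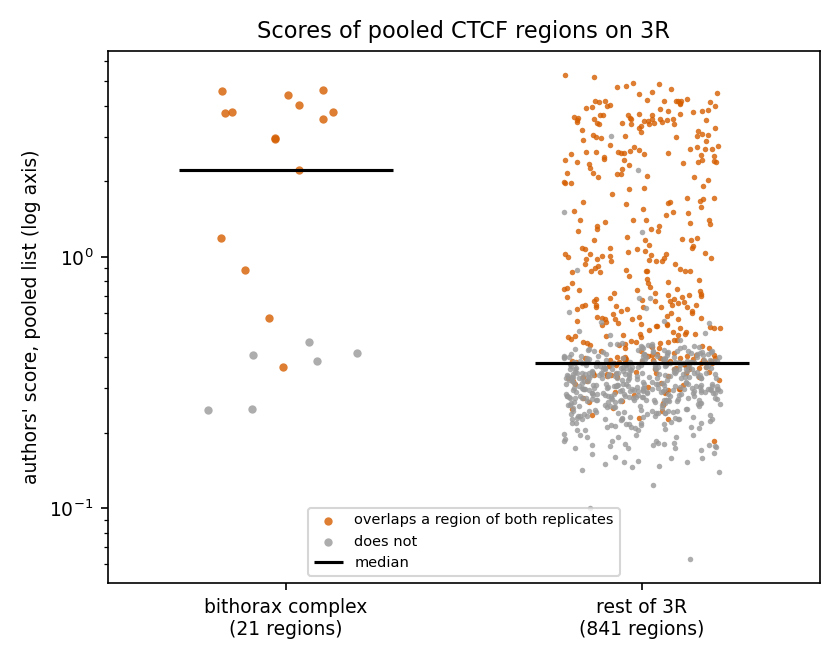
Authors' score of every pooled CTCF region on 3R (y axis, log scale) for the 21 regions of the bithorax complex (left) and the 841 of the rest of 3R (right). Each point is 1 region, orange where it overlaps a region of both replicates and grey where it does not, and horizontal lines are medians (2.21 and 0.379). The points of the complex leave a space between 1.19 and 2.21. On the rest of 3R, 44 of the 841 points (5.23%) lie between 1.2 and 2.2.

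In width and overlap the high-class regions of the complex had values close to those of high-scoring regions elsewhere on the arm. With scores over 2, the 11 regions of the complex had a median width of 2679 bp and 11 of 11 overlapped both replicates. The 119 such regions on the rest of 3R had a median width of 2687 bp and 117 overlapped both (98.3%). The limit of 2 was set in a gap of the complex's own scores after they were seen, so the shares over it are descriptions and no test. Regions over it made up a larger share of the complex, 11 of 21 (52.4%, exact 95% interval 29.8 to 74.3), against a background of 14.1% on the rest of 3R. Among regions of both replicates the count was 11 of 15 (73.3%, 44.9 to 92.2), against 117 of 381 (30.7%).

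None of the windows counted elsewhere on 3R had as many strong regions. When 3R was tiled outward from the complex in windows of its length, and regions were counted by their centres, the complex held 11 regions with a score over 2, and the 82 other windows 0 to 5, with a median of 1. That limit was set after the scores of the complex were seen. By the top 10% of 3R scores instead, the complex held 10 regions and the other windows 0 to 5. It held 15 regions seen in both replicates, against 0 to 10 in the other windows, and 21 pooled regions, against 3 to 22, so 1 window had more regions in all. With windows moved in steps of 10 kb, 2692 of which did not touch the complex, the highest number elsewhere was 7 regions with a score over 2 and 13 seen in both replicates. In 22 of these windows there were at least 21 pooled regions, with 23 at most. These windows describe 1 arm in these lists and are not a test.

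**Figure D4:**
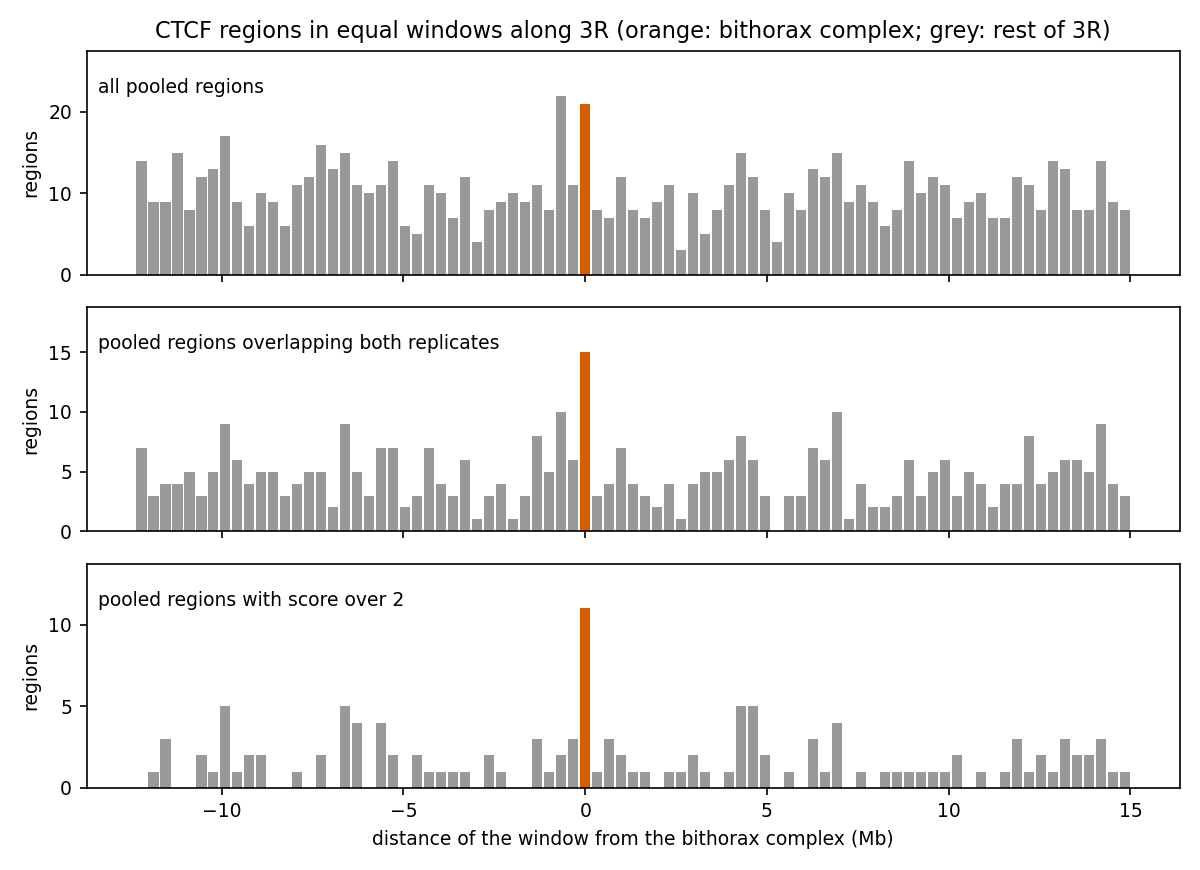
Number of CTCF regions in windows of the length of the bithorax complex that tile 3R, plotted by distance from the complex in Mb. The top plot counts all pooled regions, the middle plot those that overlap regions of both replicates, and the bottom plot those with a score over 2, with the complex in orange and the 82 other windows in grey. The complex has 21, 15 and 11 regions in these plots, and the highest grey bars are 22, 10 and 5.

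Strong regions of the complex followed each other at short range. The 10 gaps between neighbouring high-class regions ran from 9.00 to 34.0 kb, with a median of 15.9 kb, while all 3R regions with a score over 2 were a median of 137 kb apart. The limit of 2 was set after the scores of the complex were seen, so this contrast is a description. The widest of these gaps, 34.0 kb, was the one that held the weak region at 12724002. A gap of 32.4 kb spanned abd-A, and one of 31.3 kb lay between the first and second high-class regions after Ubx. The shortest, 9.00 kb, was within Abd-B, and 9.50 kb separated the regions at 12681650 and 12693762. For the 15 regions of both replicates the median gap was 13.1 kb in the complex and 48.3 kb over all of 3R.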

How the data were processed

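The authors deposited 3 lists of enriched regions, 1 for each of 2 CTCF ChIP libraries and 1 for both together, in FlyBase release 5 per the file headers. The submitters' processing notes name the aligner Bowtie 0.12.7. Per the labels' protocols, embryos were fixed in 1.8% formaldehyde, and incubation with antibody took 15 h. How regions were called, with which threshold and use of input, and how libraries were pooled is not given in the sources used here. The deposited score of each region has no stated formula and was used to rank regions within a list, to set the class limit and to give medians. Labels name no separate collections, so differences between replicates may be technical. Complex and gene spans were chosen, and the analysis planned, with earlier results of these data known. Every region in the complex was described, and elsewhere only its nearest neighbours and the highest of 3R. The pooled list held 1 depleted region, which was left out. Regions were shared at 1 bp of overlap. Percentiles are mid-ranks among the 3R regions of a list. Density ratios had exact binomial intervals, which cover counting only. Alternatives were centres within 200 bp, a 50% reciprocal overlap, each replicate list, other limits, higher scores and covered bases. Code was tested on simulated data. The software was SciPy 1.17.1, NumPy 2.4.6, Matplotlib 3.10.9 and pandas 2.3.3 under Python 3.11.15. RefSeq release 6 gave gene names, order and lengths. No genome sequence was used, so no motif was searched and no sequence is shown.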

Additional observations from a re-analysis of the deposited data

How the results depend on the processing

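The density ratio of the complex to the rest of 3R was 2.09 in the pooled list and stayed above 1, with its interval, under every alternative that has one. It ran from 2.51 to 2.86 with single replicate lists, was 2.18 with limits at the gene spans and 3.64 for regions at or above the median score of 3R, and was 10.9 (5.01 to 21.1) in the top 10% of 3R scores, an alternative chosen after seeing the data. In covered bases the ratio was 2.48, without an interval. The covered share of the complex, 14.9%, depended on the list: it was 11.9 to 12.2% with single replicate lists and 13.4% at or above the median score, which hold fewer regions. The number of regions was 21 in the pooled list, 15 with either replicate list alone and 18 at or above the median score, of which 77.8% were seen in both replicates, against 78.5% of such regions on the rest of 3R. The share seen in both replicates was 71.4%, against 45.3% on the rest of 3R. With a reciprocal overlap of 50% it was also 71.4%, against 44.4% on the rest of 3R. With centres within 200 bp it was 61.9%, where the rest of 3R had 38.9%. Score percentiles of single regions depended on the list. Each region of the complex seen in both replicates stood at a lower 3R percentile in either replicate list than in the longer pooled list. Placing regions by centre moved 1 region, at the left end of Ubx, out of the gene span. No paired analysis was possible because the input libraries, which share the replicate numbers, were not analysed here. Depth is unknown, so how far it limits the weak regions cannot be given.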
